A study of Nothobranchius furzeri with 20 samples.

Results

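A set of 22 among 26739 genes was close to the limit of detection in the brain of 9-week-old male fish and was detected at 27 weeks. The fish were turquoise killifish, Nothobranchius furzeri, of the strain MZM-04/10p. The genes were selected on measured levels: a level below 0.5 CPM (counts-per-million, the count scaled to the library total) in all 10 libraries of 9 weeks, at least 0.5 in 5 or more of the 10 libraries of 27 weeks, and a 27-week mean at least 2 times the 9-week mean. The rule would have kept at most 150 genes, a limit that was not reached. Because the rule used the levels at both ages, the difference between the ages in these genes is given as a description and not as a finding.

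The 20 libraries formed 4 groups of 5: 9 weeks with the solvent DMSO, 9 weeks with rotenone at 1% LC50 (a fraction of the concentration lethal to the median fish), and the same 2 treatments at 27 weeks. Every fish was male and of the same strain, and the labels state no genetic change, no route and no length of treatment. Separate fish per library are not stated, so that p-values refer to the spread among libraries, which may in part be technical. Gene identifiers in the files come without names and none of them matched the RefSeq gene table, so the roles of the genes are not given and the labelled tissue was not checked against marker genes.

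The turquoise killifish is an annual fish of short life, used to study ageing of the brain and other organs within one vertebrate lifespan. Rotenone blocks complex I of the mitochondrial respiratory chain and is used at high dose to model loss of dopamine neurons. RNA of whole brain mixes neurons, glia, vessels, blood and other cells, and most genes with levels this low contribute only a few reads to a library. A rise in such a gene can come from more transcripts per cell or from more cells that carry them, and these cannot be told apart in bulk RNA.

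Libraries held 19433958 to 24159773 counts, so the limit of 0.5 CPM stood for 9.72 to 12.1 counts. The number of genes with at least 1 count was 21375 to 21635 at 9 weeks and 21427 to 21669 at 27 weeks. At 27 weeks, DMSO replicate 1 and rotenone replicate 2 stood apart in the 22 genes, and results that rest on them are given with and without both. Across all 19452 genes tested, DMSO replicate 1 was the highest of the 10 libraries in 18.5% and rotenone replicate 2 in 6.90%, while DMSO replicate 4 held the highest share with 19.1%.

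The genes were near the detection limit at 9 weeks but not silent. Mean levels at 9 weeks ran from 0.0569 to 0.412 CPM, with a median of 0.234. No member was without counts in all 10 libraries of 9 weeks, and 9 of the 22 had at least 1 library at 0. Summed over these 10 libraries, a member had 13 to 94 counts, and no single library held more than 11. At 27 weeks mean levels ran from 0.490 to 2.88 CPM, with a median of 0.686, and the members had 111 to 634 counts over 10 libraries. Per length, mean levels at 27 weeks were 0.120 to 1.72 RPKM (CPM per kilobase of gene length, recomputed here from the counts), against 0.0386 to 0.589 RPKM at 9 weeks.

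**Figure D1:**
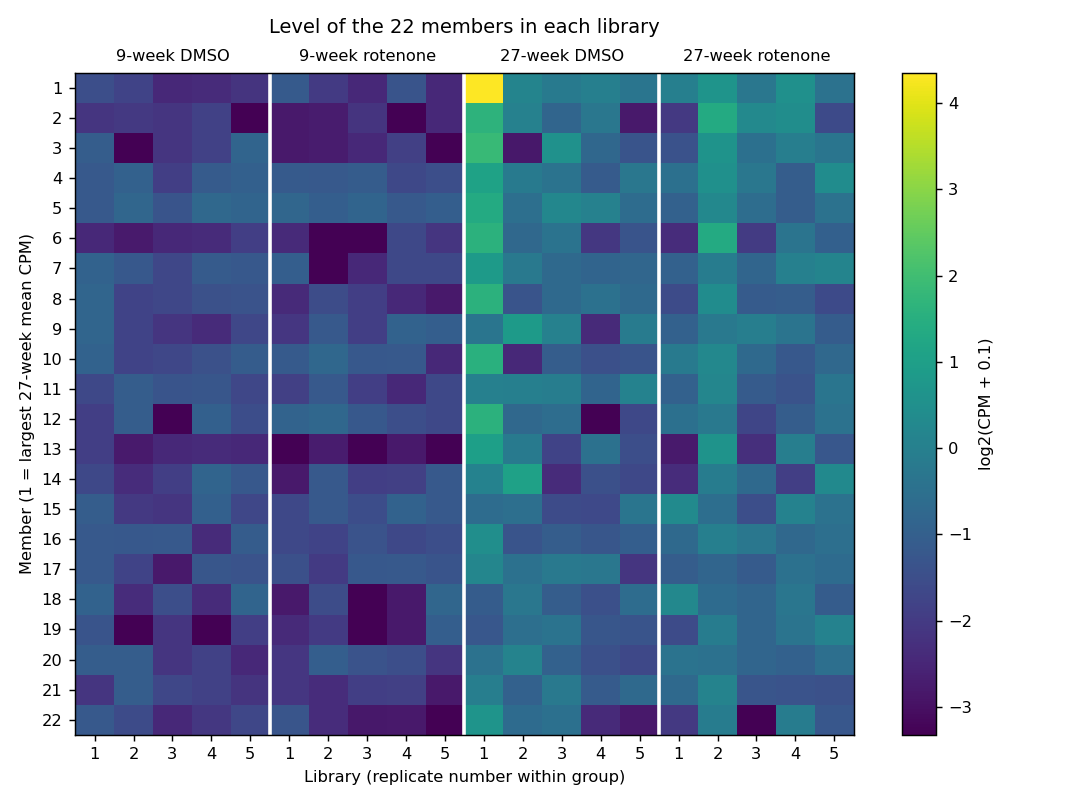
Level of each of the 22 members (rows, ordered by 27-week mean) in each of the 20 libraries (columns, by group), as log2(CPM + 0.1) in colour. Every 9-week library lies below 0.5 CPM by the rule, and at 27 weeks DMSO replicate 1 and rotenone replicate 2 are the brightest columns.

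The ratio of 27-week to 9-week mean CPM was 2.08 to 16.8, with a median of 2.88, and 7 of 22 members lay below 2.5. Most members passed with few libraries to spare: 10 were at 0.5 CPM or more in exactly 5 libraries of 27 weeks, 17 in 5 or 6, and only 1 in all 10. The highest 9-week value of any member was 0.498 CPM, and 8 members had a 9-week library at 0.45 CPM or more. Just outside the rule, 14 genes failed through 1 library of 9 weeks, the lowest such value being 0.513 CPM. A further 8 genes were detected in 4 libraries of 27 weeks, and 11 missed the ratio with values up to 1.998. The lowest 27-week mean kept was 0.490 CPM in Nfu_g_1_013172, and no gene was left out by the limit of 150. With the ages exchanged in the rule, 12 genes were below 0.5 CPM in all 27-week libraries and detected at 9 weeks.

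Only 1 member had 27-week libraries that all lay above all 9-week libraries, where 2.02% of tested genes did, and the rule used this contrast. That member, Nfu_g_1_003545, had the largest 27-week mean of the set and was alone in reaching 0.5 CPM in all 10 libraries. At 9 weeks it stood at 0.257, 0.189, 0.0852, 0.0905 and 0.125 CPM in DMSO replicates 1 to 5, and at 0.351, 0.146, 0.0828, 0.300 and 0.0860 CPM in rotenone. At 27 weeks it stood at 20.3, 1.01, 0.801, 0.900 and 0.689 CPM in DMSO and at 0.898, 1.47, 0.720, 1.34 and 0.639 CPM in rotenone. DMSO replicate 1 alone held 70.6% of its 27-week sum. Its ratio of means was 16.8 with all libraries and 5.11 without DMSO replicate 1 and rotenone replicate 2, and all 8 remaining libraries still lay above the 9-week range.

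Nfu_g_1_013124 had the next largest mean and a different form. At 27 weeks it was high in some libraries of each treatment and at the 9-week level in others. In DMSO it stood at 3.03, 0.928, 0.471, 0.720 and 0.0430 CPM, and in rotenone at 0.142, 2.49, 1.13, 1.25 and 0.228 CPM. At 9 weeks its highest library was at 0.181 CPM and it had 20 counts over 10 libraries. Its ratio of means was 11.8, and 6.97 without both high libraries.

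A single pair of libraries carried much of the 27-week signal. The summed level of the 22 genes at 27 weeks was 55.8, 15.7, 13.3, 8.91 and 9.21 CPM in DMSO replicates 1 to 5 and 10.3, 24.099, 10.3, 13.9 and 13.0 CPM in rotenone. With Nfu_g_1_003545 left out, it was 35.5 CPM in DMSO replicate 1 and 22.6 CPM in rotenone replicate 2. The other 27-week libraries then lay at 8.01 to 14.7 CPM. At 9 weeks the sum of all 22 ran from 3.54 to 6.76 CPM over all 10 libraries. Each 27-week library thus lay above each 9-week library in the sum. The rule fixes the direction of the means and favours such a separation, though it does not demand it of every library. Group means were 5.16 ± 1.17 CPM in DMSO fish and 4.40 ± 0.357 in rotenone fish at 9 weeks, and 20.6 ± 19.9 and 14.3 ± 5.70 at 27 weeks (SD, n = 5 each). Without both high libraries the 27-week means were 11.8 ± 3.29 CPM (DMSO) and 11.9 ± 1.87 (rotenone), with n = 4 and the SD for each.

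**Figure D2:**
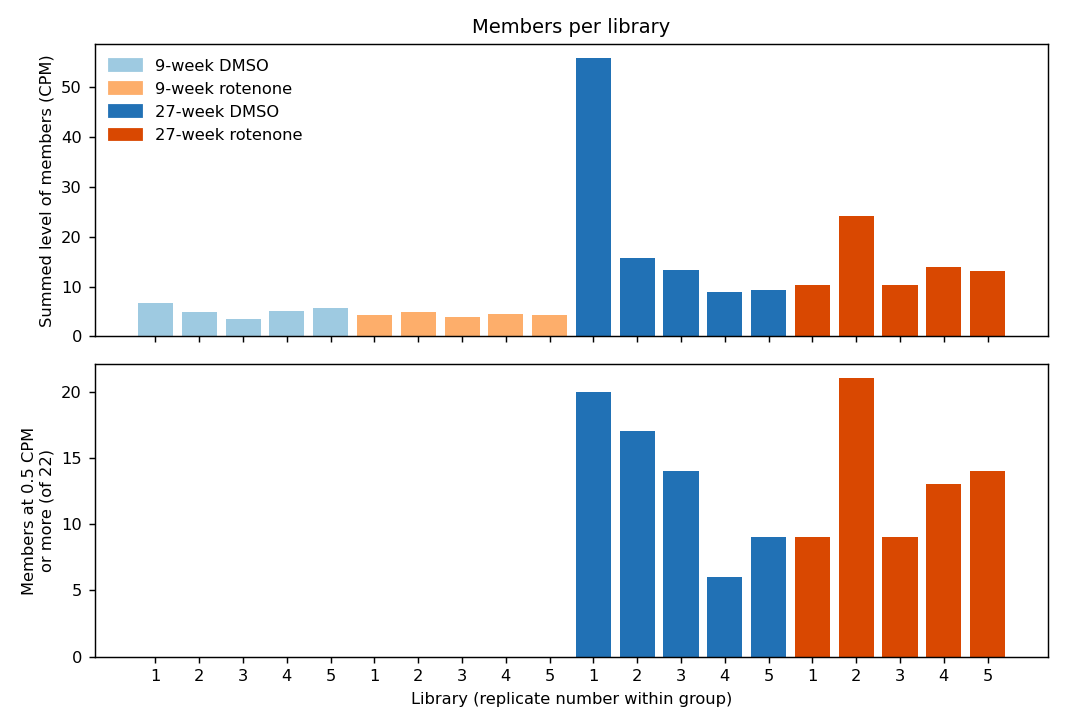
Summed CPM of the 22 members (top) and number of members at 0.5 CPM or more (bottom) in each library, coloured by group. DMSO replicate 1 reaches 55.8 CPM and rotenone replicate 2 reaches 24.099 CPM, and no member reaches 0.5 CPM at 9 weeks by the rule.

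DMSO replicate 1 had 20 of the 22 members at 0.5 CPM or more and rotenone replicate 2 had 21. In the other 8 libraries of 27 weeks this number was 6 to 17, lowest in DMSO replicate 4. That library also had the fewest genes with a count at 27 weeks, 21427, while DMSO replicate 1 had 21600 and rotenone replicate 2 had 21632, values within the range of the other libraries. The part of the number of genes with a count in these differences was not tested.

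DMSO replicate 1 was the highest 27-week library for 14 members, or 63.6%. DMSO replicate 1 and rotenone replicate 2 were the 2 highest of the 10 libraries for 13 members, 59.1%, where this was so for 5.92% of all genes tested, 1151 genes. Both libraries were among those the rule used, so these shares are descriptions. Together they held 16.7% to 75.7% of a member's 27-week sum, with a median of 37.6%, and more than all other 8 libraries together in 8 members, Nfu_g_1_003545 and Nfu_g_1_013124 among them.

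Leaving out DMSO replicate 1 left 11 genes that met the rule, 10 of them among the 22, and leaving out rotenone replicate 2 left 13, 12 of them among the 22. Without both, 6 genes met it, 5 of them members, although 5 libraries of 8 is a stricter demand than 5 of 10. With 4 of 8 libraries demanded, 14 genes met the rule and 11 of them were members. The ratio of means without both libraries was 1.30 to 7.09, with a median of 2.42, and stayed at 2 or more in 17 members. All 22 kept a higher mean at 27 weeks. The rule favours this, since it demands at least 3 detected libraries besides any 2, but does not force it for every member.

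**Figure D3:**
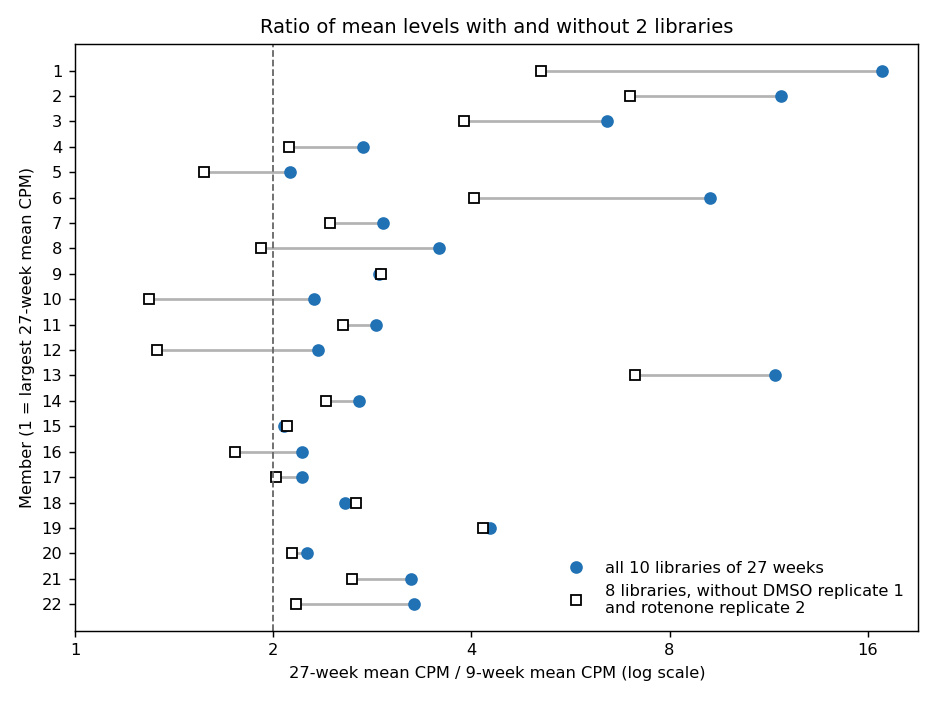
Ratio of 27-week to 9-week mean CPM for each member on a log scale, with all 10 libraries of 27 weeks (filled circles) and with 8 libraries (open squares). The dashed line marks the ratio of 2 that the rule demands, and 17 of 22 squares lie at or above it.

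Spread between libraries was close to counting error at 9 weeks and above it at 27 weeks. The index of dispersion, the spread of counts about those given by the library totals, is near 1 where counting error alone acts. It had a median of 1.25 at 9 weeks and 8.18 at 27 weeks. Without both high libraries the 27-week median was 2.60. The limit of 0.5 CPM in every 9-week library restricts the spread there. Above counting error, the index also grows with the count at the same relative spread. Members had a median of 53 counts over the 10 libraries of 9 weeks and 153 over those of 27 weeks. The indices of both ages are thus descriptions and give no change of relative spread with age. Nfu_g_1_003545 had the highest index at 27 weeks, 287.8.

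Correlations between members over libraries are given as a description, since the rule used these levels and DMSO replicate 1 and rotenone replicate 2 were singled out for being high in many members. Over 10 libraries of 27 weeks the Spearman correlation of log2(CPM + 0.1) between members had a median of 0.321 over 231 pairs, of which 188 were above 0. Over the 8 libraries left without DMSO replicate 1 and rotenone replicate 2 the median was 0.0714, with 130 pairs above 0, and over the 10 libraries of 9 weeks it was 0.0912, with 137 pairs above 0. All genes of a library share its depth and scaling, and at 9 weeks counts of 0 to 11 leave little room for a correlation to show.

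Sorted log2(CPM + 0.1) values of 27 weeks were searched for a step larger than 1.5 with 2 or more libraries on each side. In the set, 1 member had one, and the share of all genes with such a step is not given. A step that set a single library apart was not counted, such as that of Nfu_g_1_003545 from 1.47 to 20.3 CPM. Nfu_g_1_001256 stood at 2.93 CPM in DMSO replicate 1 and at 2.49 CPM in rotenone replicate 2, and its other 27-week libraries lay between 0.0945 and 0.669 CPM. The step was 1.75 on the log2 scale. At 9 weeks it stood at 0.0950 ± 0.0435 CPM in DMSO and 0.0862 ± 0.0910 in rotenone (SD, n = 5 each). Its ratio of means was 9.22, and 4.04 without both libraries.

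The members were short genes. Gene lengths, recovered from the ratio of counts to deposited RPKM, had a median of 1236.5 bases among the 22 and 2669.5 bases among all genes tested. Lengths ran from 311 to 5722 bases, and 21 members lay below the median of tested genes. Genes of low level are shorter in general: the 1627 tested genes with a mean below 1 CPM over all libraries had a median of 1661 bases, and 15 members lay below that value. CPM is not scaled by length, so a limit in CPM is a higher limit per transcript for a short gene than for a long one.

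Whether rotenone changed these genes at 27 weeks could be tested, because the rule did not use treatment. All 22 members passed the filter on low counts, which is close to the demand for 5 detected libraries in the rule. At 27 weeks 0 of 22 were called between rotenone and DMSO fish, where 0.391% of all genes tested were called (edgeR quasi-likelihood test, Benjamini-Hochberg adjusted p below 0.05). The lowest adjusted p of a member was 0.217 by edgeR. DESeq2 gave an adjusted p for 0 of the 22 and so could call none. There 1 member had an unadjusted p below 0.05, and the share of all genes by DESeq2 is not given. With edgeR, an unadjusted p below 0.05 was seen for 2 members, against 14.4% of all genes tested. They were Nfu_g_1_003545 and Nfu_g_1_001537 (named here after its value was seen, log2 fold change -0.84 ± 0.37, SE, edgeR adjusted p = 0.305). Log2 fold changes of rotenone against DMSO ran from -2.21 to 0.67 with a median of -0.30, where the median of all genes tested was -0.01.

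The balance of directions differed with and without DMSO replicate 1 and rotenone replicate 2. With all libraries, 16 members had a lower and 6 a higher fitted level with rotenone at 27 weeks. Without both, 18 members passed the filter, of which 6 were lower and 12 higher, with a median log2 fold change of 0.21. Over all 22 members, the mean CPM was higher in DMSO for 16 with all libraries and for 9 without both.

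**Figure D4:**
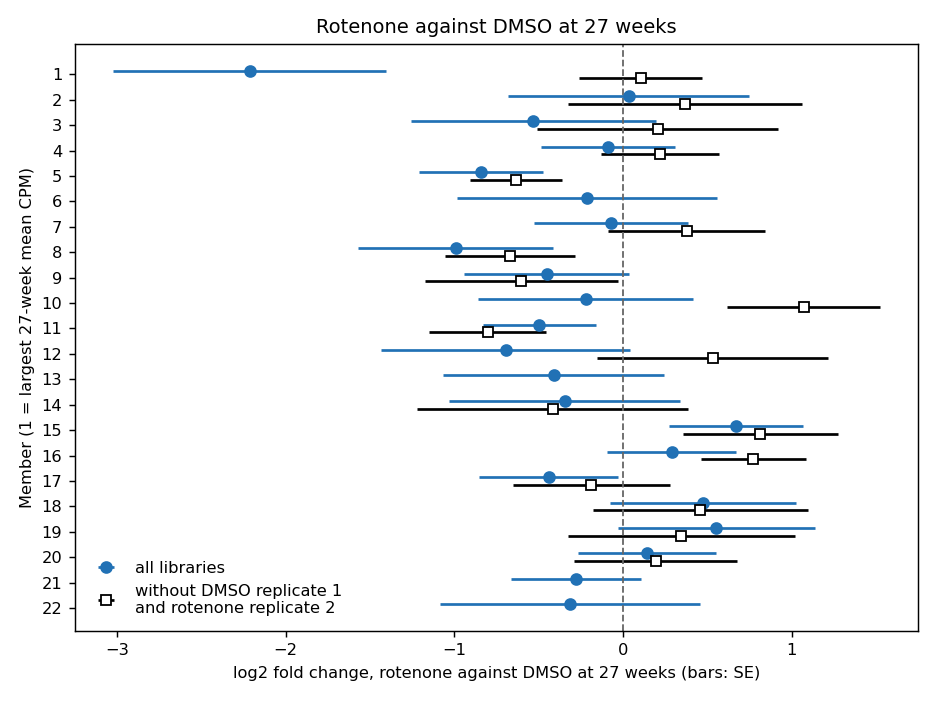
Log2 fold change of rotenone against DMSO at 27 weeks for each member (edgeR, bars show the SE), with all libraries (circles) and without DMSO replicate 1 and rotenone replicate 2 (squares, 18 members that passed the filter). No member was called with all libraries, and member 1, Nfu_g_1_003545, moves from -2.21 to 0.11.

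The member with the smallest unadjusted p among those lower with rotenone was Nfu_g_1_003545, at 4.74 ± 8.70 CPM in DMSO and 1.01 ± 0.373 in rotenone at 27 weeks (SD, n = 5 each). Its log2 fold change was -2.21 ± 0.81 (SE; edgeR adjusted p = 0.217). Without DMSO replicate 1 it was 0.28, the opposite direction. Among members higher with rotenone the smallest unadjusted p was that of Nfu_g_1_014472. It stood at 0.550, 0.590, 0.236, 0.225 and 0.689 CPM in DMSO and at 1.18, 0.590, 0.257, 0.961 and 0.639 CPM in rotenone at 27 weeks. The groups overlapped, and the log2 fold change of 0.67 ± 0.40 was not called (SE; edgeR adjusted p = 0.444).

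At 9 weeks 0 of 22 members were called between treatments, where 0.0257% of genes tested were, and 0 had an unadjusted p below 0.05, against 6.99% (edgeR). The rule held every 9-week library of both treatments below 0.5 CPM, which stood for 10.3 to 12.1 counts, and the highest count seen was 11. The rule thus limited the difference that could appear at this age and, through it, in the interaction. DESeq2 gave an adjusted p for 0 of the 22 at 9 weeks, and 0 had an unadjusted p below 0.05. The interaction, in which the effect of rotenone is compared across ages, was called for 0 members, where 0.0206% of genes tested were called, and 0 had an unadjusted p below 0.05, against 10.0% (edgeR). DESeq2 gave an adjusted p for 11 of the 22, called 0 of these, and gave 0 of the 22 an unadjusted p below 0.05. For DESeq2 the share of all genes with an unadjusted p below 0.05 is not given, at 9 weeks or for the interaction. Nfu_g_1_004809 had the smallest unadjusted p among positive differences. It stood at 0.265 ± 0.175 CPM in DMSO and 0.160 ± 0.199 in rotenone at 9 weeks, and at 0.458 ± 0.179 and 0.635 ± 0.283 at 27 weeks (SD, n = 5 each). The difference of 1.21 ± 0.87 on the log2 scale was not called (SE; edgeR adjusted p = 0.688). On the negative side Nfu_g_1_003545 had the smallest p, with a difference of -2.58 ± 1.46 (SE; edgeR adjusted p = 0.578), which was -0.09 without 27-week DMSO replicate 1.

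The fitted change with age within each treatment differed among the members. Of the 22, 11 were called higher at 27 weeks in DMSO, where 9.64% of tested genes were, and 14 in rotenone, where 12.9% were (edgeR, adjusted p below 0.05), with 7 called in both and 4 in neither. The rule used these contrasts and nothing is read from the counts. Median log2 changes were 1.46 in DMSO and 1.70 in rotenone.

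Levels that had no part in the choice came from choosing genes in one treatment and reading them in the other. The same rule was applied to the 10 DMSO libraries alone, with detection in 3 or more of 5 libraries of 27 weeks, and gave 51 genes. In the 10 rotenone libraries, which had no part in the choice, 43 of the 51 had a higher mean at 27 than at 9 weeks, 84.3%, against 52.2% of all genes tested. The median ratio of means was 2.82 in the DMSO libraries that chose them and 1.51 in rotenone. Rotenone fish had 11 of the 51 called higher and 0 lower, 21.6%, against 12.9% of all genes tested called higher (edgeR, adjusted p below 0.05), and 48 of the 51 passed the filter. This fit takes both its filter and its estimate of spread from all 20 libraries, those of the choice included. Genes could thus pass the filter through the DMSO libraries that chose them as high, so the 21.6% is not independent of the choice. In a fit of the rotenone libraries alone, 26 of the 51 passed the filter and 2 were called higher. The share of all genes called in that fit is not given, so this count has no background. Groups that did not overlap were seen for 6 of 51, 11.8%, close to the 11.0% of all genes tested. The higher mean was thus seen again in most genes.

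The reverse choice gave values of the same kind. The rule on the 10 rotenone libraries gave 44 genes, of which 40 had a higher mean at 27 weeks in DMSO, 90.9%, against 54.6% of all genes tested. The median ratio was 2.81 where they were chosen and 1.8003 in DMSO. The filter, which again used all 20 libraries, kept 40 of the 44, and genes could pass it through the rotenone libraries that chose them. In DMSO 6 of the 44 were called higher and 0 lower, 13.6%, against 9.64% of all genes tested (edgeR, all 20 libraries). In a fit of the DMSO libraries alone, 12 of the 44 passed the filter and 1 was called higher, again without a share of all genes beside it. Groups of 3 of the 44 did not overlap, 6.82%, against 6.13%. With the ages exchanged in the choice, 2 of 25 genes chosen in DMSO had a higher 27-week mean in rotenone, and 8 of 49 chosen in rotenone had one in DMSO.

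**Figure D5:**
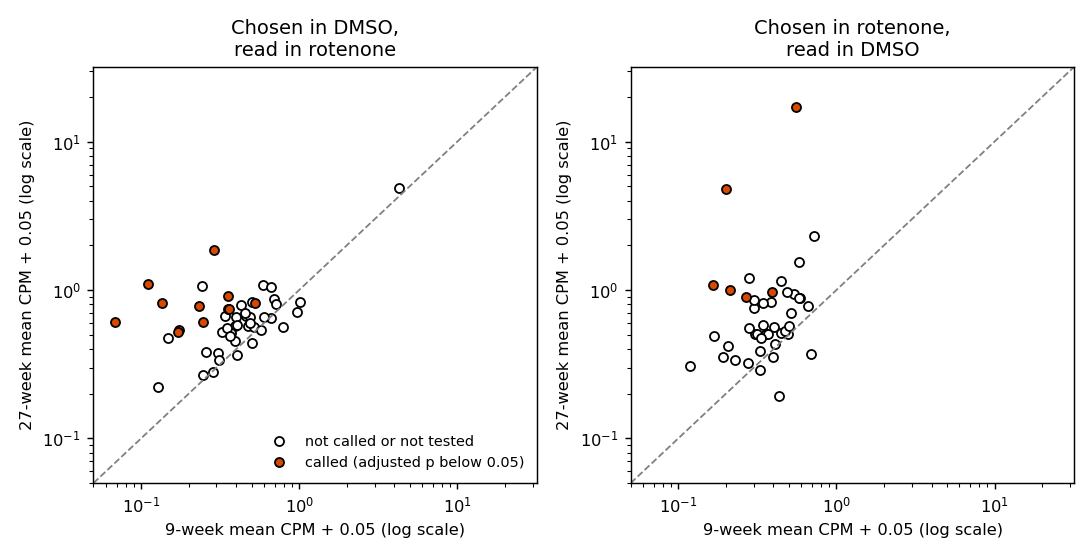
Mean CPM at 9 weeks (horizontal) and 27 weeks (vertical), both with 0.05 added and on log scales, of genes chosen in one treatment and read in the other. Points above the dashed line of equality number 43 of 51 (left) and 40 of 44 (right), and filled points mark the 11 and 6 genes called higher at 27 weeks.

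The genes chosen in 1 treatment were also read without the high libraries. Read without rotenone replicate 2, 38 of the 51 genes chosen in DMSO had a higher mean at 27 weeks, with a median ratio of 1.38, and read without DMSO replicate 1, 38 of the 44 chosen in rotenone did, with a median ratio of 1.68. When both libraries were also left out of the choice, 21 of 28 and 21 of 22 genes had a higher mean, and 3 and 1 were called higher. The choice was made again for each library left out, so that the number chosen changed with the number called. In place of 11 of 51, 5 of 28 were called without 27-week DMSO replicate 1, 7 of 30 without 27-week DMSO replicate 2 and 5 of 51 without 27-week rotenone replicate 2. In place of 6 of 44, 2 of 44 were called without 27-week DMSO replicate 1, 2 of 22 without 27-week rotenone replicate 2, 3 of 31 without 27-week rotenone replicate 3 and 3 of 29 without 27-week rotenone replicate 4. It was 10 of 53 without 9-week rotenone replicate 2 and 12 of 62 without 9-week rotenone replicate 4. The shares of all genes with a higher mean or called higher are not given for any of these settings. Fewer calls here thus cannot be told apart from fewer calls over all genes.

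The choices of both treatments had 5 genes in common, 9.80% of the DMSO choice and 11.4% of the rotenone choice. All 5 were among the 22, which the rule fixes, since a gene in both choices also meets it over all libraries. Of all genes in the table, 0.165% were in the rotenone choice and 0.191% in the DMSO choice. These shares are not a like comparison, because each choice was limited to genes below 0.5 CPM at 9 weeks in its own treatment. Of the 26739 genes, 6961 were below 0.5 CPM in all 10 libraries of 9 weeks. Each of the other members met the rule within a single treatment. Thus 14 of the 22 were in the DMSO choice and 13 in the rotenone choice. Absence from a choice does not mean that a member showed no rise in that treatment. All 22 members had a higher fitted level at the later age in both treatments (edgeR). The rule used these levels, so that direction is a description.

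Among genes chosen in DMSO and called in rotenone fish, those with the largest 27-week means there were Nfu_g_1_004503 and the member Nfu_g_1_013124. Nfu_g_1_004503 is not a member, since a 9-week rotenone library reached 0.527 CPM. Its mean in rotenone fish was 0.241 ± 0.190 CPM at 9 weeks and 1.798 ± 1.77 at 27 weeks (SD, n = 5 each), and it rose by 2.88 ± 0.83 in log2 (SE; edgeR adjusted p = 0.0131). Its 27-week rotenone libraries stood at 0.236, 4.51, 0.926, 2.63 and 0.685 CPM, so replicate 1 lay within the 9-week range. Without replicate 2 the log2 change was 2.203 and the gene was not called (edgeR adjusted p = 0.0529). Without both high libraries the change was 2.205 and the gene was called (edgeR adjusted p = 0.0176). Nfu_g_1_013124 had means of 0.0605 ± 0.0469 and 1.05 ± 0.950 CPM (SD, n = 5 each) at these ages and rose by 3.98 ± 0.99 in log2 (SE; edgeR adjusted p = 0.00517). It did not pass the filter in a fit of the rotenone libraries alone. Its lowest 27-week rotenone library, at 0.142 CPM, lay just above the highest rotenone library of 9 weeks, at 0.124 CPM. It lay below 9-week DMSO replicate 4, at 0.181 CPM. Over all libraries, 1 count was worth 0.0414 to 0.0515 CPM.

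Among genes chosen in rotenone and called in DMSO fish, the 2 with the largest 27-week means were raised most in DMSO replicate 1. Nfu_g_1_009838, not a member because it reached 1.11 CPM in a 9-week DMSO library, stood at 82.0, 0.675, 1.18, 0.810 and 0.430 CPM in the 27-week DMSO libraries. Its log2 change of 5.06 ± 1.38 (SE; edgeR adjusted p = 0.0132) was 0.57 without replicate 1 and not called (edgeR adjusted p = 0.599). In a fit of the DMSO libraries alone it was not called either (edgeR adjusted p = 0.0667). Nfu_g_1_003545 rose by 4.93 ± 1.00 on the log2 scale in DMSO (SE; edgeR adjusted p = 0.00184). Without replicate 1 the change was 2.44 and still called (edgeR adjusted p = 0.000715), and its 5 DMSO libraries of 27 weeks all lay above the 5 of 9 weeks. The gene was also in the DMSO choice. Read in rotenone, it rose by 2.35 ± 0.98 and was not called (SE; edgeR adjusted p = 0.0756), although the 2 ages did not overlap there either.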

How the data were processed

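Per the labels' protocols, a TruSeq RNA kit was used. Tools named in the submitters' processing notes are STAR 2.4.1d, featureCounts 1.4.6-p4 and bcl2fastq 1.8.4. The genome build, annotation and strand setting were not given in the sources used here, so reads of overlapping, antisense or near-identical genes cannot be told apart. The deposited counts are whole numbers, not normalized. The deposited RPKM values, made by the authors, match counts divided by library totals recycled over rows (99.997% within 0.0011 RPKM, against 7.51% with own totals) and served only to recover gene lengths.

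The members and lists were chosen with earlier results of these data known. Counts were tested in edgeR 4.0.16 (R 4.3.3) on 19452 genes kept by filterByExpr, with TMM scaling, 1 mean per group and robust quasi-likelihood fits over all 20 libraries. The fits were tested on simulated data first. Those data had the same dispersion for all genes and no outlying library, so they do not test the fits for levels such as those of the members at 27 weeks. Fold changes are log2 and levels are CPM with library totals. DESeq2 1.42.0, library totals, no filter, fits of the groups compared only and fits without 1 library were alternatives. Leaving out both high libraries was added after seeing the data. Within groups, all pairs of libraries differed by more than sampling noise (chi-square per degree of freedom 7.80 to 57.1 over 40 pairs). Identifiers were named by a rule, at most 2 per direction and comparison: largest 27-week mean, smallest p by direction for rotenone and the interaction, largest mean among genes called in the unused treatment, and largest gap. Cell type markers were not applied.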

Additional observations from a re-analysis of the deposited data

Results flagged for a closer look

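In groups of 5 libraries, 1 library was compared with its nearest neighbour for the members' summed CPM, the number of members detected, the number of genes with a count and the 7 identifiers named. In 8 of 40 groups the gap exceeded 0.71 of the whole range, which chance gives in about 1 in 20 groups of normally distributed values. Low counts are skewed, so that rate may not hold here, and the identifiers share libraries and were named for high values. The 40 also include the number of members detected at 9 weeks, which the rule fixes at 0 and which could not be flagged. The summed level of 27-week DMSO replicate 1 lay apart, at 55.8 CPM against 15.7 in the nearest library, and so did that of 27-week rotenone replicate 2, at 24.099 CPM against 13.9. DMSO replicate 1 also lay apart for Nfu_g_1_003545 at 20.3 CPM, for Nfu_g_1_009838 at 82.0 CPM, for Nfu_g_1_004503 at 5.41 CPM and for Nfu_g_1_001256 at 2.93 CPM, and rotenone replicate 2 lay apart for Nfu_g_1_001256 at 2.49 CPM. DMSO replicate 4 of 27 weeks had 21427 genes with a count, against 21600 in the nearest library of its group. Over all 22 members, such a gap was seen for 10 in DMSO at 27 weeks, 9 of them with replicate 1 high, for 2 in rotenone at 27 weeks, for 1 in DMSO at 9 weeks and for 0 in rotenone at 9 weeks. The share of all genes with such a gap is not given and the rule used these levels. These numbers are thus descriptions and show no trait of the members.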

How the results depend on the processing

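The number of members depended on the limits of the rule. It was 57 with 3 or more libraries of 27 weeks, 3 with 8 or more, 6 with a ratio of 4, 11 to 26 without 1 library, and 6 or 14 without both high libraries (detected in 5 or in 4 of 8). With limits of 0.25 or 1 CPM the number was 23 or 16, but only 3 and 0 of those genes were among the 22, while CPM scaled by TMM gave 22 genes, all of them members. No member was called for rotenone at either age or for the interaction in any of the alternatives run, but DESeq2 gave an adjusted p for 0, 0 and 11 of the 22, a fit of the 9-week libraries alone tested 1 and the fit without both high libraries tested 18, while all 22 were tested in the other alternatives. Over all genes tested the calls moved from 76 to 471 with DESeq2, 128 with library totals, 21 in a fit of the 27-week libraries alone and 164 without both high libraries for rotenone at 27 weeks, from 5 to 94, 6, 1 and 18 at 9 weeks, and from 4 to 142 with DESeq2, 6 with library totals and 14 without both for the interaction. Without 1 library these counts were 27 to 266, 0 to 24 and 0 to 34. For genes chosen in DMSO and called higher in rotenone, the count of 11 of 51 was 2 in a fit of the rotenone libraries alone, where 26 of 51 passed the filter, 3 of 49 with the choice at 0.25 CPM, 1 of 9 with 5 of 5 libraries, 3 of 28 without both high libraries and from 5 (of 28 or 51) to 16 (of 93) without 1 library. For genes chosen in rotenone and called higher in DMSO, the count of 6 of 44 was 1 in a fit of the DMSO libraries alone, where 12 of 44 passed the filter, 12 of 40 with the choice at 1 CPM, 1 of 8 with 5 of 5 libraries, 1 of 22 without both and from 2 (of 44 or 22) to 12 (of 62) without 1 library. As the lists differ in size and the share of all genes called with age in each alternative is not given, these counts give no order of strength. Rotenone against DMSO at 27 weeks changed direction for Nfu_g_1_003545 (-2.50 to 0.28 without 1 library, 0.11 without both), Nfu_g_1_013124 (-0.58 to 0.98) and Nfu_g_1_001256 (-1.40 to 0.97), none of them called. DESeq2 gave no adjusted p for Nfu_g_1_003545 or Nfu_g_1_009838 with age in DMSO. No paired analysis was possible because the labels give the libraries no shared replicate numbers. At 1 count per 0.0414 to 0.0515 CPM, a 9-week library held at most 11 counts of a member, and smaller differences there could not be resolved.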
